A study of Mus musculus with 4 samples.

Results

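The genes examined here were *Gm11549*, whose promoter was deleted, and 8 genes that lie around it on mouse chromosome 3, from *Anxa5* on one side to *Fgf2*, *Nudt6* and *Spata5* on the other. They were chosen by symbol for their position, and all 9 are among the 24347 genes listed for each sample. RNA came from day 3 embryoid bodies (EBs) grown from mouse embryonic stem cells (mESCs) in medium with serum and without LIF, so that they differentiate. WT EBs were compared with EBs of mESCs that carry a CRISPR/Cas9 deletion of the *Gm11549* promoter (promoter KO), with 2 samples of each genotype on a 129/Ola background. The methods describe promoter KO mESCs as clones grown from single sorted cells after transfection with a pair of guides and picked by PCR. They do not say whether the promoter KO samples come from different clones, so genotype and clone cannot be told apart. The study calls its samples biologically independent. Levels are in FPKM, in which fragments are scaled to transcript length and to the depth of the sample, so levels can be compared between genes.

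*Gm11549* is annotated as a protein-coding gene with a short reading frame, the source of the micropeptide NEMEP, and RefSeq lists it as *Smim43*. Removing a promoter can in principle alter neighbouring genes, because regulatory DNA often acts on several genes of one chromosomal domain. A comparison of the neighbours by their distance from the deletion addresses this question. The neighbours have unrelated roles. *Anxa5* encodes a protein that binds phosphatidylserine in the presence of calcium. *Exosc9* encodes a subunit of the RNA exosome, which degrades and trims RNA. *Ccna2* encodes cyclin A2, which drives S phase and entry into mitosis. *Bbs7* encodes a subunit of the BBSome, a complex that carries membrane proteins to and from cilia, and *Bbs12* a chaperonin-like protein needed to assemble it. *Fgf2* encodes a secreted growth factor, *Nudt6* is a Nudix hydrolase gene transcribed from the opposite strand of the *Fgf2* locus, and *Spata5* encodes an AAA ATPase with a role in the maturation of the large ribosomal subunit.

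On GRCm38, *Gm11549* lies on the minus strand at chr3:36515057-36521813 and has 3 exons.

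*Gm11549* was close to absent in promoter KO EBs. It stood at 0.750 FPKM in WT 1, at 0.522 FPKM in WT 2, at 0 in promoter KO 1 and at 0.0659 FPKM in promoter KO 2. Both WT samples were thus far above both promoter KO samples, and the labels were borne out in every sample. The mean was 0.636 ± 0.161 FPKM (SD, n = 2) in WT against 0.0330 ± 0.0466 FPKM (SD, n = 2) in promoter KO. The gene stayed below the filter for testing, which asked for at least 1 FPKM in at least 2 samples. An exact two-sided permutation test of log2(FPKM + 1) gave p = 0.333, the smallest p that 2 samples against 2 allow. With no filter beyond a value above 0, limma gave a log2 fold change of -0.661 ± 0.0898 (SE, unadjusted p = 0.00144, adjusted p = 0.1425). The depth was estimated from the value that 1 fragment gives in genes with a single annotated transcript, at about 25.3 M fragments in WT 1, 22.6 M in WT 2, 22.2 M in promoter KO 1 and 20.6 M in promoter KO 2. At this depth, the *Gm11549* values correspond to about 49.1 and 30.5 fragments in WT and to 0 and 3.5 fragments in promoter KO. A count of 0 in promoter KO 1 allows a level of up to 0.0523 FPKM, the value of 3 fragments. With fragments rounded and scaled to depth, 4 in promoter KO against 79 in WT gave a level 17.6-fold lower in promoter KO, with an exact Clopper-Pearson interval at 95% from 6.62-fold to 66.2-fold that covers counting error only. In EBs measured in bulk, fewer cells that express a gene and less of its RNA per cell cannot be told apart.

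**Figure D1:**
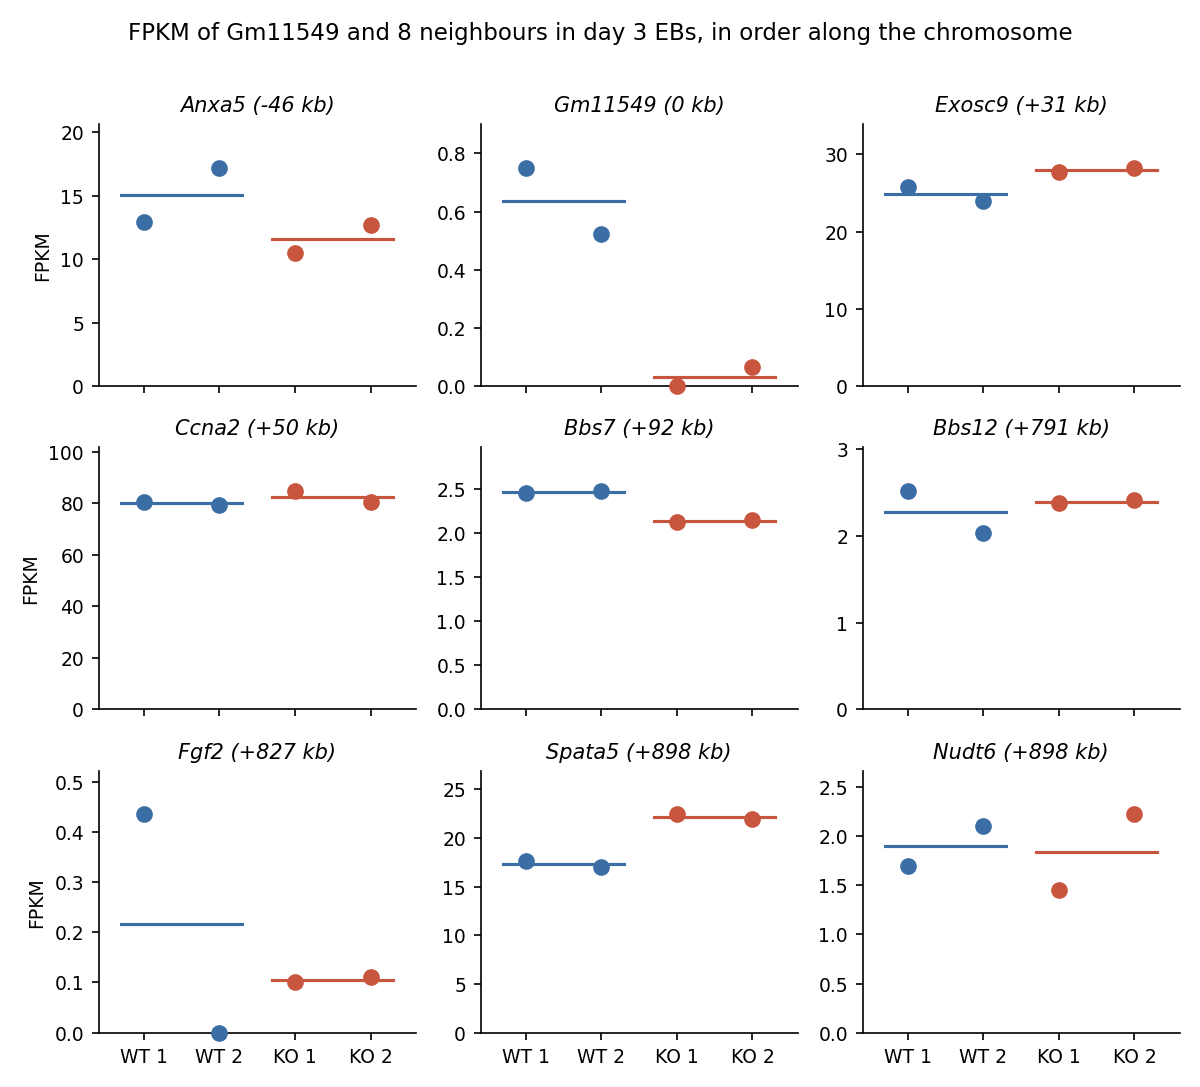
FPKM of *Gm11549* and its 8 neighbours in each of the 4 samples, in order along chromosome 3, with the distance of each gene start from the *Gm11549* start in parentheses. Points are samples (blue, WT; red, promoter KO), horizontal lines are genotype means, and each vertical axis starts at 0. *Gm11549* is at 0 and 0.0659 FPKM in promoter KO, whereas *Ccna2* lies between 79.3 and 84.7 FPKM in all 4 samples.

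The 9 genes covered a wide range of levels in WT EBs. *Ccna2* was the most abundant with a mean of 79.9 FPKM, followed by *Exosc9* with 24.9 FPKM, *Spata5* with 17.3 FPKM and *Anxa5* with 15.1 FPKM. *Bbs7* at 2.47 FPKM, *Bbs12* at 2.27 FPKM and *Nudt6* at 1.90 FPKM formed a lower tier, above *Gm11549* and *Fgf2*. The WT samples of *Spata5* and *Anxa5* overlapped, as did those of *Bbs12* with *Bbs7* and with *Nudt6*, so the order within these pairs was not resolved beyond the spread of the samples. In promoter KO EBs *Spata5* and *Anxa5* no longer overlapped, with means of 22.2 and 11.6 FPKM.

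Of the 9 genes, 7 passed the filter and were tested with limma on log2(FPKM + 1), and *Gm11549* and *Fgf2* did not. At a Benjamini-Hochberg adjusted p under 0.05, limma called 0 of the 7, against 427 of all 11941 tested genes, or 3.58%. Among all tested genes 1.89% were called lower and 1.68% were called higher in promoter KO. At an unadjusted p under 0.05, limma gave 0 of the 7 lower and 1 higher (*Spata5*), beside 15.6% of all tested genes lower and 15.0% higher. The promoter KO samples were both below the WT samples in 2 of the 7 (*Anxa5* and *Bbs7*) and above them in 2 (*Exosc9* and *Spata5*), where 32.4% of all tested genes lay below and 32.9% above. The median log2 fold change of the 7 genes was 0.05, beside 0.00 over all tested genes. The count over all genes rested on single samples, since limma called 0 genes without WT 2 or without promoter KO 1, 175 without WT 1 and 486 without promoter KO 2, while the count for the neighbours was 0 in each case.

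*Exosc9* and *Ccna2*, the nearest genes on one side, did not pass the test. *Exosc9*, on the plus strand at chr3:36552606-36565727, starts 30.8 kb from the *Gm11549* start. It measured 25.8 and 24.0 FPKM in WT against 27.7 and 28.3 FPKM in promoter KO. The promoter KO samples were the higher pair, by a log2 fold change of 0.16 ± 0.09 (SE) that did not pass the test (limma adjusted p = 0.292). *Ccna2*, on the minus strand at chr3:36564865-36572150, starts 50.3 kb away. It measured 80.5 and 79.3 FPKM in WT against 84.7 and 80.3 FPKM in promoter KO, so the genotypes overlapped. Its log2 fold change was 0.05, with a 95% interval from -0.15 to 0.24 (limma adjusted p = 0.725). The sign of this small difference turned with quantile normalization, to -0.001. *Ccna2* had the smallest limma SE of the 7 tested genes, and a change of its level by more than 1.18-fold up or to less than 0.903-fold, on the scale of FPKM + 1, lies outside that interval. *Exosc9* and *Ccna2* converge and share 863 bases on opposite strands, and whether strand was used in counting is not stated in the sources used here, so fragments from the shared bases cannot be assigned to one gene.

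*Anxa5* and *Bbs7* were lower in both promoter KO samples, without passing the test. *Anxa5*, on the minus strand at chr3:36448923-36475894, starts 45.9 kb from the *Gm11549* start on the side opposite to *Exosc9*. Its values were 12.97 and 17.21 FPKM in WT against 10.5 and 12.7 FPKM in promoter KO. The highest promoter KO sample was close to the lowest WT sample, and the gap was smaller than the spread within either genotype. The log2 fold change was -0.35 ± 0.17 (SE), with a 95% interval from -0.76 to 0.06 (limma adjusted p = 0.218). It ran from -0.158 without WT 2 to -0.540 without WT 1. *Bbs7*, on the minus strand at chr3:36573142-36613477, starts 91.7 kb away and lies only 991 bases beyond *Ccna2*. It measured 2.46 and 2.48 FPKM in WT against 2.13 and 2.15 FPKM in promoter KO. Both promoter KO samples were the lower ones, and the genotypes did not overlap. Replicates of *Bbs7* lay close together, with SDs of 0.0159 and 0.0153 FPKM, yet limma shares variance between genes of similar level and gave a log2 fold change of -0.14 ± 0.14 (SE, adjusted p = 0.515).

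The farther genes start 790.7 to 898.4 kb away, beyond *4932438A13Rik*. *Spata5* showed the lowest p of the 7 tested genes. It is on the plus strand at chr3:37419896-37579096 and starts 898.1 kb from the *Gm11549* start. Its values were 17.59 and 17.05 FPKM in WT against 22.4 and 21.9 FPKM in promoter KO. The promoter KO samples were thus 28.1% higher on average, and the gap between genotypes exceeded the spread within them. The log2 fold change was 0.34 ± 0.10 (SE) with a 95% interval from 0.10 to 0.58. It did not pass the test over all genes (limma unadjusted p = 0.0127, adjusted p = 0.0874), and 29.9% of all tested genes had a larger log2 fold change in either direction. *Nudt6*, on the minus strand at chr3:37404910-37420211, shares 316 bases with *Spata5* on the opposite strand. It measured 1.699 and 2.107 FPKM in WT against 1.45 and 2.22 FPKM in promoter KO, so that the genotypes overlapped (log2 fold change -0.04 ± 0.19 SE, limma adjusted p = 0.902). *Bbs12*, on the plus strand at chr3:37312554-37321453, also overlapped between genotypes, with 2.51 and 2.03 FPKM in WT against 2.37 and 2.41 FPKM in promoter KO (fold change in log2 0.05 ± 0.15 SE, limma adjusted p = 0.831). The signs of the *Nudt6* and *Bbs12* differences turned when single samples were left out.

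*Fgf2*, on the plus strand at chr3:37348346-37410108, was hardly detected. It was listed at 0.435 FPKM in WT 1, 0 in WT 2, 0.1001 FPKM in promoter KO 1 and, in promoter KO 2, 0.110 FPKM. The WT samples spanned the promoter KO samples, and no difference was detectable at this level. *Fgf2* and *Nudt6* share 5199 bases on opposite strands. Without a stated strand setting, part of the value of either gene may come from the other.

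In 2 pairs that include genes of the 9, neighbours start head to head with gene bodies that overlap at the starts. *Spata5* and *Nudt6* form one pair, in which only *Spata5* separated the genotypes. *Bbs12* and *Cetn4*, a centrin gene, form another. *Cetn4*, below the filter, stood at 0.581 and 1.08 FPKM in WT against 0.222 and 0.422 FPKM in promoter KO, with the higher promoter KO sample below the lower WT sample, whereas *Bbs12* overlapped. The bodies share 155 bases in *Cetn4* and *Bbs12* and 316 bases in *Nudt6* and *Spata5*. The genes of each pair differed in whether the genotypes separated, where 32.4% of all tested genes lay below and 32.9% above. Any part of the DNA at their starts in this was not tested. For each pair the longest stretch free of annotated exons in the promoter windows is shown as a description. It lies inside the gene on the minus strand and upstream of the annotated start of the gene on the plus strand. The sequences are given 5′ to 3′ on the plus strand from RefSeq (GRCm38.p6), with the letters CG, which read the same on both strands, in capitals. The first is chr3:37312447-37312518 (72 bases, 7 CG) and the second chr3:37419597-37419822 (226 bases, 22 CG), which lies between alternative first exons of *Nudt6*.
Cetn4 and Bbs12: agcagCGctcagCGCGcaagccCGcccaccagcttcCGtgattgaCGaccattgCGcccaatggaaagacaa
Nudt6 and Spata5: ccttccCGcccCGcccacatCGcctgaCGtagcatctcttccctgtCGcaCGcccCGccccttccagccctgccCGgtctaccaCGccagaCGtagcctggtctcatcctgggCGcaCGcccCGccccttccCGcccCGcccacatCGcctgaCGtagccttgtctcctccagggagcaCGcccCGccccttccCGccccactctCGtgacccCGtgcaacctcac

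RefSeq promoter windows of 300 bases were found for 7 of the 9 genes and not for *Exosc9* and *Ccna2*. The window of *Gm11549* held 27 CG, and 15.5% of all 32851 promoter windows held at least as many. *Bbs12* had 29, *Nudt6* and *Spata5* 28 each, *Fgf2* 24, *Bbs7* 22 and *Anxa5* 16, all above the median of 7 over all windows. In CG count, *Fgf2* and *Gm11549*, both barely detected, lay between *Anxa5* and *Spata5*, which had far higher levels.

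To compare the genes by distance, every listed gene with a start within 1 Mb of the *Gm11549* start was taken. There were 27, the 9 genes and 18 others, and of the others 8 reached 1 FPKM in a sample and 10 did not. The ends of the deletion are not given in the sources used here, so distances run from the annotated *Gm11549* start. Of the 14 genes tested in this window, limma called 0 at an adjusted p under 0.05, beside 3.58% of all tested genes. At an unadjusted p under 0.05, 1 was lower and 1 was higher (*Spata5*), beside 15.6% and 15.0% of all tested genes. The log2 fold changes in the window ran from -0.485 to 0.34. All 14 had a 95% interval between -1 and 1 on the log2 scale, as had 10479 of all 11941 tested genes. The median log2 fold change in the window was 0.05. It ran from -0.005 without promoter KO 2 to 0.09 without promoter KO 1, and it was 0.11 over the 8 genes with a mean of at least 5 FPKM. The median size of the log2 fold change, regardless of sign, was 0.10 in the window and 0.21 over all tested genes.

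**Figure D2:**
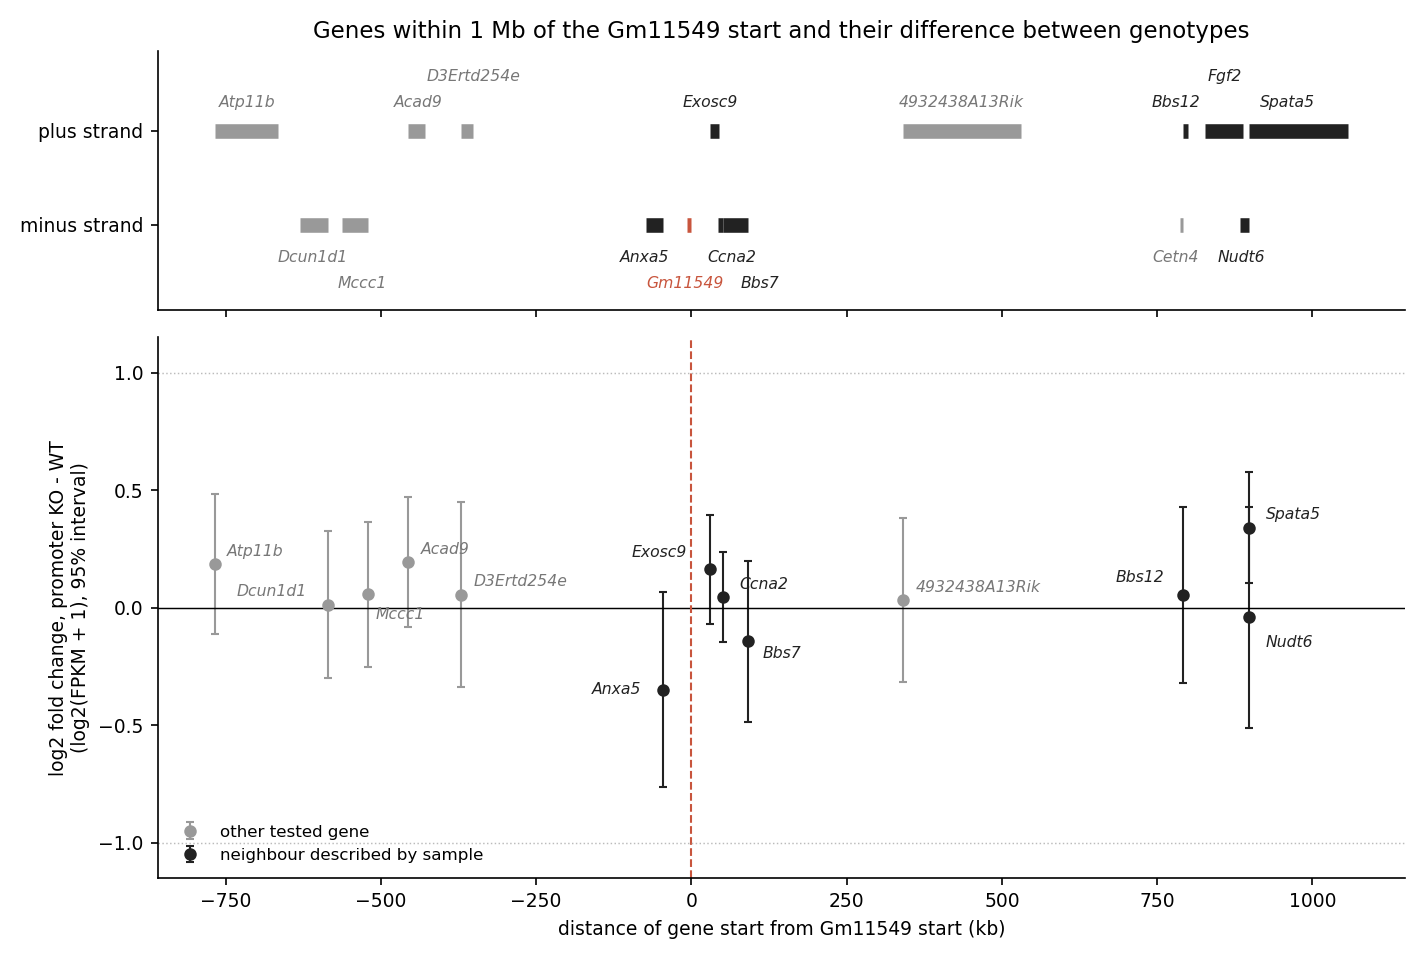
Genes within 1 Mb of the *Gm11549* start that reached 1 FPKM in a sample and are reported by name, drawn by strand and distance in kb (top), and the log2 fold change of log2(FPKM + 1) between promoter KO and WT with its 95% limma interval for 13 of the 14 tested genes (bottom). Black marks the tested neighbours described by sample, grey the other genes, and red *Gm11549*. No interval reaches -1 or 1, and small differences lie at every distance.

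The size of the difference was only loosely related to distance. The 4 tested genes within 100 kb (*Anxa5*, *Exosc9*, *Ccna2* and *Bbs7*) had a median size of 0.15. The 4 genes from 100 to 500 kb had a median size of 0.12, and the 6 genes from 500 to 1000 kb a median size of 0.06. Across the 14 genes, Spearman's rho between distance and size was -0.244, as a description of neighbouring genes in the same 4 samples. The median log2 fold change was 0.06 for the 6 genes on the *Anxa5* side and 0.04 for the 8 on the *Exosc9* side. The 22 genes from 1 to 5 Mb had a median of 0.06, and limma called 0 of them. At an unadjusted p under 0.05, 1 was lower and 3 were higher, beside 15.6% and 15.0% of all tested genes. The 529 tested genes of chromosome 3 beyond 1 Mb had a median of -0.01. Of these, 9 were called lower and 11 higher, beside 1.89% and 1.68% of all tested genes.

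Of the 7 tested genes outside the 9, limma called 0, beside 3.58% of all tested genes. Both promoter KO samples lay under the WT samples in 1 and over them in 2 (*Acad9* and *Atp11b*), beside 32.4% and 32.9%. The genotypes overlapped in 4 (*Dcun1d1*, *Mccc1*, *D3Ertd254e* and *4932438A13Rik*). At an unadjusted p under 0.05, 1 of the 7 was lower and 0 were higher, beside 15.6% and 15.0% of all tested genes. This lower gene, not reported by name, had the largest difference within 1 Mb. Its log2 fold change was -0.485 (limma adjusted p = 0.13). *Acad9*, a mitochondrial acyl-CoA dehydrogenase gene, measured 12.82 and 11.79 FPKM in WT against 14.75 and 13.69 FPKM in promoter KO (limma adjusted p = 0.292). *Atp11b*, a phospholipid flippase gene, measured 18.02 and 15.91 FPKM in WT against 20.73 and 18.15 FPKM in promoter KO (limma adjusted p = 0.336), and its log2 fold change of 0.186 ran from 0.094 to 0.277 with single samples left out.

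**Figure D3:**
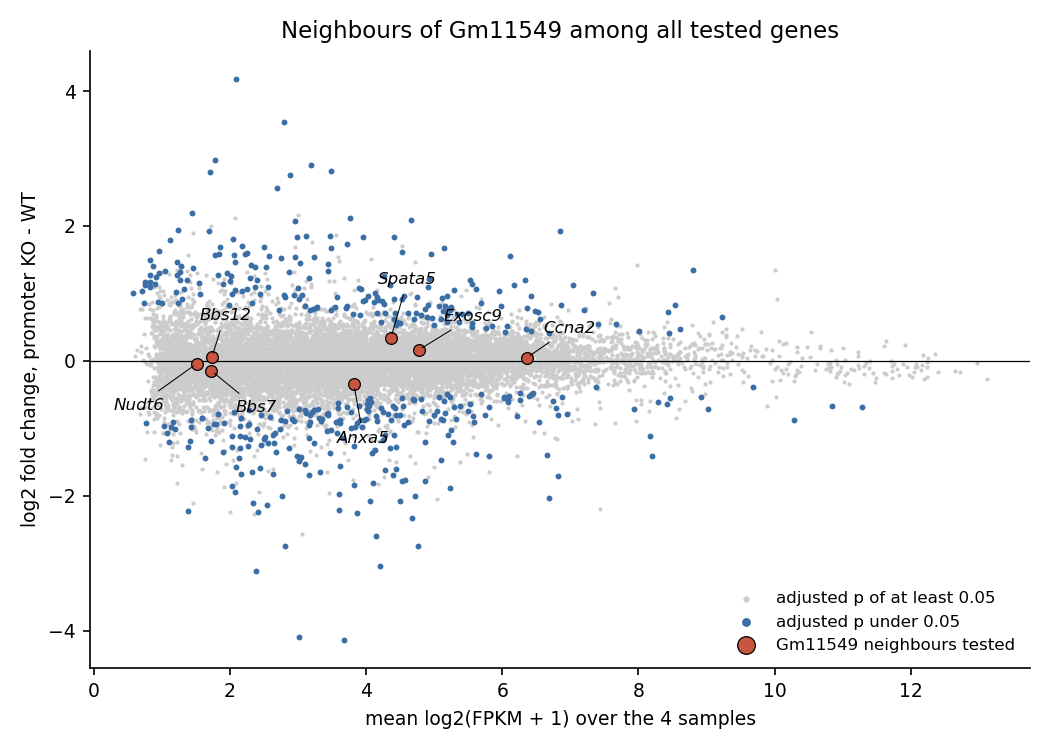
Log2 fold change between promoter KO and WT against the mean log2(FPKM + 1) over the 4 samples for the 11941 tested genes. Blue points have a limma adjusted p under 0.05, grey points do not, and the 7 tested neighbours are in red. The neighbours lie between -0.35 and 0.34, within the grey band at their level.

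The EBs themselves differed strongly between genotypes in cell type markers. Calls among the markers stand beside 1.89% lower and 1.68% higher among all tested genes. Markers in which the genotypes did not overlap stand beside 32.4% lower and 32.9% higher. The labels call the cells mesendoderm derived from ES cells, and the 8 mesendoderm markers were present in every sample, none of them at 0. Their summed level was 777 FPKM in WT 1 and 1002 FPKM in WT 2, against 148 FPKM in promoter KO 1 and, in promoter KO 2, 314 FPKM, and *T* had the highest mean in both genotypes. Of the 8, 5 fell in promoter KO (*Mesp1*, *Lhx1*, *Mixl1*, *Evx1* and *Gsc*) and 0 rose at a limma adjusted p under 0.05. Of 8 extraembryonic endoderm markers, 5 rose (*Amn*, *Cubn*, *Dab2*, *Ttr* and *Sox7*) and 0 fell, and the summed level was 29.7 and 41.6 FPKM in WT against 59.2 and 73.7 FPKM in promoter KO, with the highest mean for *Sox17* in WT and for *Dab2* in promoter KO, and with none at 0. *Sox17* was lower in both promoter KO samples than in both WT samples without passing the test (limma adjusted p = 0.0779). *Cubn* and *Sox7* passed the filter through their promoter KO samples alone, so a lower level could not have been called for them. Of 8 markers of pluripotent cells, 1 rose (*Utf1*) and 0 fell, with summed levels of 2012 and 1742 FPKM in WT against 2740 and 2439 FPKM in promoter KO, mostly *Pou5f1*, while *Nanog* was lower in both promoter KO samples than in both WT samples (limma adjusted p = 0.0974). Of 4 trophoblast markers 3 were tested and 1 fell (*Tfap2c*), with sums of 16.6 and 53.0 FPKM in WT against 7.152 and 10.05 FPKM in promoter KO, and *Cdx2* had the highest mean in both genotypes. The untested trophoblast marker, *Elf5*, did not exceed 0.0473 FPKM in any sample. The markers of neuroectoderm (led by *Nes*), of blood and endothelium (led on average by *Kdr* in WT and by *Pecam1* in promoter KO) and of fibroblast feeders (led by *Thy1*) had 0 called, with 1, 2 and 2 of 4 tested. The sums were 22.1 and 24.9 FPKM in WT against 8.68 and 16.1 FPKM in promoter KO for neuroectoderm, 4.44 and 15.6 against 7.20 and 5.07 FPKM for blood and endothelium, and 12.8 and 12.3 against 17.3 and 10.6 FPKM for feeders. The neuroectoderm sum is almost all *Nes*, while *Pax6*, *Sox1* and *Zic1*, all under 1 FPKM, were higher in both promoter KO samples than in both WT samples. The feeder sum is mostly *Thy1*, while *Col1a2* and *Col3a1* stayed under 1 FPKM in every sample. The part of these shifts in the values of the locus was not tested. All calls among markers were lost without WT 2, without promoter KO 1 and without a filter, and several under further alternatives. *Evx1* kept its call in 2 of 11 alternatives and *Mesp1* in 4 of 11.

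The functional relatives of the neighbours were examined in lists, whose counts at an unadjusted p under 0.05 stand beside 15.6% lower and 15.0% higher among all tested genes. Their calls at an adjusted p under 0.05 stand beside 1.89% lower and 1.68% higher. Of 15 tested genes of the RNA exosome and its partners, *Exosc9* included, limma called 0, with 0 lower and 3 higher at an unadjusted p under 0.05. The median log2 fold change was 0.13, and the summed level was 832 and 828 FPKM in WT against 923 and 863 FPKM in promoter KO. *Exosc9* at 0.16 was thus near the middle of its complex. Of 14 tested cyclins of the A, B and E classes and their partners, 1 fell and 1 rose, with 2 lower and 2 higher at an unadjusted p under 0.05 and a median of 0.05 that *Ccna2* shared. *Ccnb2*, which encodes mitotic cyclin B2, fell from 98.7 and 105 FPKM in WT to 68.8 and 75.4 FPKM in promoter KO (fold change in log2 -0.49 ± 0.09 SE, limma adjusted p = 0.0472). *Cdkn1a*, which encodes the CDK inhibitor p21, rose from 43.8 and 49.5 FPKM to 82.5 and 83.3 FPKM (log2 fold change 0.82 ± 0.09 SE, limma adjusted p = 0.0280).

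The cilium list around *Bbs7* and *Bbs12* had a median log2 fold change of -0.07. Of its 13 tested genes limma called 0, with 1 lower (*Bbs4*) at an unadjusted p under 0.05. Both promoter KO samples lay below the WT samples in 6 and above them in 0, beside 32.4% and 32.9% of all tested genes. The sums were 63.6 and 64.7 FPKM in WT against 64.3 and 60.9 FPKM in promoter KO. Of 7 tested annexins limma called 0, with 2 lower at an unadjusted p under 0.05 (*Anxa2* and *Anxa4*) and a median of -0.18. The sum of the annexins was 159 and 226 FPKM in WT against 135 and 146 FPKM in promoter KO, and *Anxa2*, with the highest mean in WT but not in promoter KO, averaged 75.7 FPKM in WT against 27.3 FPKM in promoter KO (fold change in log2 -1.38 ± 0.34 SE, limma adjusted p = 0.0699). *Anxa5* at -0.35 had a smaller difference than *Anxa2*, a gene on another chromosome that was singled out after its values were seen. Regardless of sign, the difference of *Anxa5* was above the median size of the 7 annexins, which was 0.21.

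The FGF list held the largest differences among the relatives. While *Fgf2* itself was hardly detected, *Fgf8*, an FGF ligand of the primitive streak, fell from 196 and 213 FPKM in WT to 48.9 and 77.7 FPKM in promoter KO (fold change in log2 -1.71 ± 0.21 SE, limma adjusted p = 0.0310). *Fgfr4*, an FGF receptor gene, rose from 0.738 and 0.830 FPKM to 2.54 and 2.18 FPKM (log2 fold change 0.91 ± 0.15 SE, limma adjusted p = 0.0453), and it passed the filter through its promoter KO samples alone. These were the 2 calls among 10 tested genes, whose median was 0.10, with 1 lower and 3 higher at an unadjusted p under 0.05. *Fgf4* was higher in both promoter KO samples, with a log2 fold change of 1.48 that missed the threshold (limma adjusted p = 0.0514).

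Of 21 tested Nudix hydrolase genes limma called 0, with 4 lower and 1 higher at an unadjusted p under 0.05, a median of -0.07 and sums of 543 and 573 FPKM in WT against 545 and 515 FPKM in promoter KO. The list of *Spata5* and factors of large ribosomal subunit maturation had 5 tested genes and 0 calls, with 3 higher at an unadjusted p under 0.05 and a median of 0.30. Both promoter KO samples lay above the WT samples in 4 of the 5 and below them in 1, beside 32.9% and 32.4% of all tested genes. *Spata5* was among the 4, as were *Rsl24d1* and *Nvl*, both named after their values were seen. *Rsl24d1*, the most abundant, stood at 94.6 and 97.1 FPKM in WT against 121.5 and 114.6 FPKM in promoter KO (limma adjusted p = 0.0755), and *Nvl* at means of 29.8 FPKM in WT against 37.5 FPKM in promoter KO (limma adjusted p = 0.109). Both lie on other chromosomes. *Spata5l1*, the closest relative of *Spata5* in the list, went the other way, with 25.9 and 26.8 FPKM in WT against 25.2 and 23.95 FPKM in promoter KO (limma adjusted p = 0.517). All 4 calls among the relatives kept their direction in every alternative run, but none of the 4 passed the test without WT 1, without WT 2, without promoter KO 1, without the trend or without a filter. *Ccnb2* kept its call in 3 of 11 alternatives, *Cdkn1a* and *Fgf8* in 6 of 11, and *Fgfr4* in 4 of 10.

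**Figure D4:**
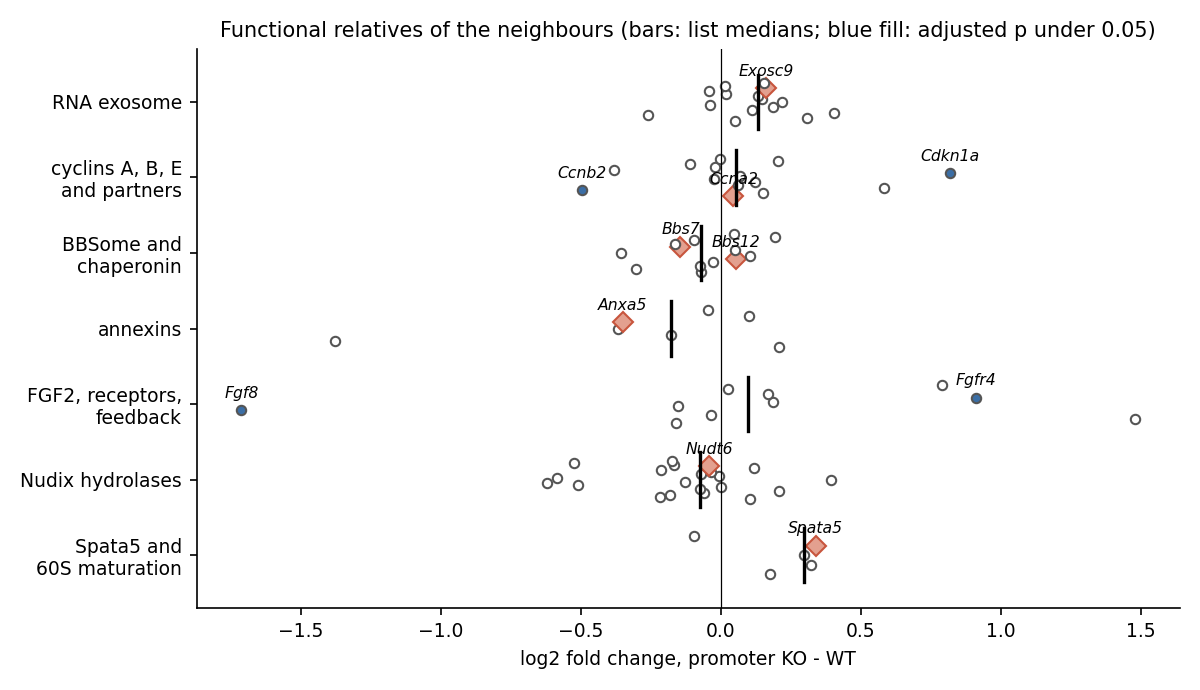
Log2 fold change between promoter KO and WT of the tested genes in the 7 lists of functional relatives. Circles are genes, red diamonds are the neighbours of *Gm11549*, blue fill marks a limma adjusted p under 0.05, and vertical bars are list medians. Only *Ccnb2*, *Cdkn1a*, *Fgf8* and *Fgfr4* are filled, and no diamond is.

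The genes whose levels most resembled *Gm11549* over the 4 samples were not its neighbours. By Pearson's correlation of log2(FPKM + 1), they were *Grb7*, which encodes an adaptor of receptor tyrosine kinases (r = 0.9998), *Paip2*, which encodes an inhibitor of translation (r = 0.9997), and *Cer1*, which encodes a secreted Nodal antagonist (r = 0.9995). *Cer1* measured 36.6 and 26.1 FPKM in WT against 7.42 and 8.93 FPKM in promoter KO. Its log2 fold change was -1.805 ± 0.18 (SE, limma adjusted p = 0.0233) and ran from -2.04 to -1.57 over the alternatives. *Cer1* kept its call in 8 of 11 alternatives and lost it without WT 2, without promoter KO 1 and without a filter. *Grb7* and *Paip2* did not pass the test (limma adjusted p = 0.307 and 0.0698). With only 4 samples in 2 groups, 91 of 11941 tested genes reached an r of at least 0.99, so the ranking is a description. Among the neighbours r ran from -0.955 for *Spata5* to 0.966 for *Bbs7*, with 0.63 for *Anxa5*.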

How the data were processed

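The data are 4 deposited tables, 1 per sample, of FPKM values for 24347 genes in day 3 EBs. As the notes deposited by the authors describe, reads were aligned to mm10 with HISAT2 (2.1.0), and Cufflinks and Cuffnorm gave the FPKM values. The methods of the study name TopHat instead and call the unit RPKM, and neither source was settled here. Rows were placed with GENCODE M21 on GRCm38. Genes that reached 1 FPKM in 2 or more samples were tested on log2(FPKM + 1) with limma 3.58.1 in R 4.3.3 (empirical Bayes with an intensity trend), promoter KO against WT, and p was adjusted by Benjamini-Hochberg over 11941 genes. The scripts were tested on simulated data. Other steps used Python 3.11.15, numpy 2.4.6, pandas 2.3.3 and scipy 1.17.1, and plots matplotlib 3.10.9. Depth was estimated from 3911 genes with 1 transcript of at least 600 bases. Named were the 9 genes and all but 1 of the others within 1 Mb that reached 1 FPKM. So were called genes of the lists and markers, and the 3 most alike to *Gm11549*. *Spata5l1*, *Pax6*, *Sox1*, *Zic1*, *Elf5*, *Col1a2* and *Col3a1* were named as well. Genes at an unadjusted p under 0.05 and most abundant genes were named after their values were seen. Counts and medians by distance include 1 tested gene within 1 Mb that is not reported here by itself. The genes and lists were chosen with earlier results of these data known. The alternatives were other pseudocounts, filters, normalizations, thresholds and windows, a replicate block, and leaving out each sample. Tests for counts were not run, since the files hold no counts.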

Additional observations from a re-analysis of the deposited data

How the results depend on the processing

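In every alternative limma called 0 of the tested neighbours at an adjusted p under 0.05. The neighbours at an unadjusted p under 0.05 varied between alternatives. With the replicate number as a block, *Anxa5* joined *Spata5*. *Anxa5*, *Exosc9* and *Spata5* kept their direction in all, and *Bbs7* in all but the filter at a mean of 5 FPKM, which left it out. *Gm11549* stayed lower in promoter KO with other pseudocounts, after centring, without a filter and with samples left out, and was not run under the others. The number of genes called over all tested genes changed from 427 to 0 without a filter beyond a value above 0, 203 with a filter at a mean of 5 FPKM, 82 without the trend and 283 after centring on each sample's median. It ran from 0 to 486 when single samples were left out, a fit in which the lone sample of a genotype is assumed to vary like the others. With the replicate number as a block it was 1202. Deviations of same-numbered samples had a correlation of 0.0348 over all tested genes. This value cannot settle whether they were handled together, since subsets of genes may share a deviation that the whole does not show. Calls were 226 lower and 201 higher in the main fit, 126 and 157 after centring, and 27 and 55 without the trend. Apart from the settings with fewer samples or genes, the cause of these changes was not tested. The median log2 fold change within 1 Mb was 0.109 with a filter at a mean of 5 FPKM, and -0.005 to 0.092 with samples left out. The log2 fold change of *Ccna2* was -0.001 after quantile normalization. With samples left out, it ran from -0.051 to 0.161 for *Bbs12*, -0.239 to 0.155 for *Nudt6*, -0.051 to 0.076 for *Dcun1d1*, -0.004 to 0.117 for *Mccc1*, -0.038 to 0.149 for *D3Ertd254e* and -0.033 to 0.095 for *4932438A13Rik*. The *Gm11549* difference was -0.661 on log2(FPKM + 1), -2.498 with a pseudocount of 0.1 and -4.272 as the log2 ratio of mean FPKM, because a pseudocount of 1 exceeds the level of the gene. Depth limits *Gm11549* and *Fgf2*, and 2 samples per genotype limit every test.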
